A study of Mus musculus with 9 samples.

Results

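Complement components and receptors were examined in the medial prefrontal cortex (mPFC) of mice as 9 genes, C1qa, C1qb, C1qc, C3, C4b, Itgam, Itgb2, C3ar1 and C5ar1, chosen by symbol because their proteins act in the tagging and removal of synapses. All 9 were found among the 24532 genes measured, and 7 of them averaged at least 30 reads per mouse, the minimum for testing. C3 and C5ar1 averaged 19.7 and 20.1 reads and were below it. The study compared 3 groups of 3 mice, all aged 11 weeks and of a strain given as C57BL/6 in the labels and C57BL/6J in the methods: unstressed wild type (CT), wild type subjected to repeated daily restraint (WT_ST), and Fkbp5-/- subjected to the same restraint (KO_ST). Fkbp5 encodes a co-chaperone that lowers the hormone sensitivity of the glucocorticoid receptor. No unstressed Fkbp5-/- group was analysed here, so KO_ST against CT differs in both genotype and stress. The methods describe the mice as male and bred from heterozygous pairs. Each library came from the dissected prefrontal cortex of 1 mouse, and in such tissue fewer cells of a type and less RNA per cell cannot be told apart.

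Complement is a cascade of blood and tissue proteins that marks targets for removal. C1q, a hexamer built from the A, B and C chains encoded by C1qa, C1qb and C1qc, binds a target and starts the classical pathway; cleavage of C4 and then of C3 leaves fragments attached to the target. Phagocytes recognise the C3 fragment iC3b through complement receptor 3, a pair of integrin chains encoded by Itgam (CD11b) and Itgb2 (CD18). The small fragments C3a and C5a are released and act through the receptors C3ar1 and C5ar1. In the brain, microglia are the main source of C1q and carry complement receptor 3, astrocytes can make C3 and C4, and the pathway is known for the removal of synapses during development and in disease.

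C1qa, C1qb and C1qc lie side by side on mouse chromosome 4 (GRCm38), at chr4:136895916-136898844, chr4:136880126-136886200 and chr4:136889801-136892936. Itgam is at chr7:128062640-128118491, Itgb2 at chr10:77530329-77565708, C3ar1 at chr6:122847140-122856157 and C5ar1 at chr7:16246743-16259540. C4b (chr17:34728139-34743902) and C3 (chr17:57203967-57228136) share chromosome 17 with Fkbp5 (chr17:28398753-28486149), their starts being 6.33 and 28.8 Mb away from its start.

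Upstream sequences were matched by symbol in RefSeq (GRCm38.p6) for 6 of the 9 genes, and C1qa, C4b and Itgb2 had no entry. The 250 bases before the transcription start given in that table were searched on both strands for GAGGAA, the core bound by PU.1, a transcription factor of myeloid cells including microglia. That start can differ from the end of the gene span printed above, and 22 bases of the C1qc window and 202 of the C5ar1 window lie inside those spans. The motif was present in C1qb, C1qc and Itgam, and absent as these letters from the windows of C3, C3ar1 and C5ar1. Of 32851 such windows of all genes, 23.3% held it. The 3 windows that held it are printed 5′ to 3′ in the direction of transcription to show where it lies, with capitals marking GAGGAA or its reverse complement TTCCTC.
C1qb, chr4:136886201-136886450, minus strand: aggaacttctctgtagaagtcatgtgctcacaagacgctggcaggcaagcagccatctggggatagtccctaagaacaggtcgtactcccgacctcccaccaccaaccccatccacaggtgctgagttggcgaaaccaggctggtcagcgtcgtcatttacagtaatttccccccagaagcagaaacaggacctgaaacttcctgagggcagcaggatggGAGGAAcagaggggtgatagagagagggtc
C1qc, chr4:136892915-136893164, minus strand: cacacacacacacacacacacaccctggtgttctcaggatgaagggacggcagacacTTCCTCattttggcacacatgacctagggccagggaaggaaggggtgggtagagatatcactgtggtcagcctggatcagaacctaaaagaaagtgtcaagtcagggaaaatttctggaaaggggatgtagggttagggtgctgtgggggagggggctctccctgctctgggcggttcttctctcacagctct
Itgam, chr7:128062390-128062639, plus strand: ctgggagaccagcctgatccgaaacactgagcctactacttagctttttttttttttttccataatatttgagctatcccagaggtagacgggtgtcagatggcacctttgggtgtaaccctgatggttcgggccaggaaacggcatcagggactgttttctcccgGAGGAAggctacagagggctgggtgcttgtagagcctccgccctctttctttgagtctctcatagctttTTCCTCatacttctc
In C1qb the motif lay 30 to 25 bases before the start. In C1qc it lay 193 to 188 bases before the start, on the opposite strand. Itgam held it at 84 to 79 bases and, on the opposite strand, at 15 to 10 bases. A search for AGAACA, a half-site of the glucocorticoid receptor, found it in C1qb (178 to 173 bases before the start) and in C1qc (222 to 217 bases, opposite strand) but not in the other 4 windows, with 16.1% of all windows holding it. The hits of the 2 motifs did not overlap. A match of letters is a description and not a measured binding site.

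The libraries held 43778471 to 61150128 reads assigned to genes. Levels are given as FPKM, the fragments per kilobase of transcript scaled to the mapped reads of the library, and so compare between genes per length. The targeted gene, Fkbp5, was at 6.46 to 7.61 FPKM in CT, 9.47 to 10.3 in WT_ST and 3.59 to 4.69 in KO_ST, with no overlap of the 3 groups, and 625 to 907 reads per KO_ST mouse were still counted on it. The cortex libraries held microglial RNA: none of 16 microglial genes was at 0, and their summed FPKM was 235.8 to 302.6 in CT, 189.9 to 222.0 in WT_ST and 109.5 to 225.7 in KO_ST. One CT library stood apart. In CT replicate 3 the summed FPKM of 10 monocyte and neutrophil genes was 86.3, against 3.94 to 14.8 in the other 8 mice, with S100a8 at 25.1 and S100a9 at 36.7 FPKM, and the sum of 5 erythroid genes, 774.9, was the highest of the 9. KO_ST replicate 1 had the lowest microglial sum and the fewest reads. Counts of called genes are therefore also given without these libraries.

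The genes of the pathway differed in level by more than 2 orders of magnitude. Averaged over the 9 mice, C1qb was highest at 22.9 FPKM, followed by C1qc at 21.7 and C1qa at 18.4. These neighbours overlapped in range across mice, although C1qb exceeded C1qc in 7 of 9 mice and C1qc exceeded C1qa in 8. Itgam followed at 4.93 FPKM, below C1qa in every mouse with no overlap of the ranges. C4b averaged 2.49, under Itgam in all 9 mice, and Itgb2 averaged 1.60, under C4b in 7 mice. The remaining 3 genes were scarce. C3ar1 averaged 0.314 FPKM, below the range of Itgb2. C5ar1 at 0.149 and C3 at 0.0746 overlapped in range, and C5ar1 was the higher in 6 of 9 mice. C3, the central component of the cascade, was thus represented by only 2 to 49 reads per library, whereas C1qa, C1qb and C1qc each had at least 462.

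**Figure D1:**
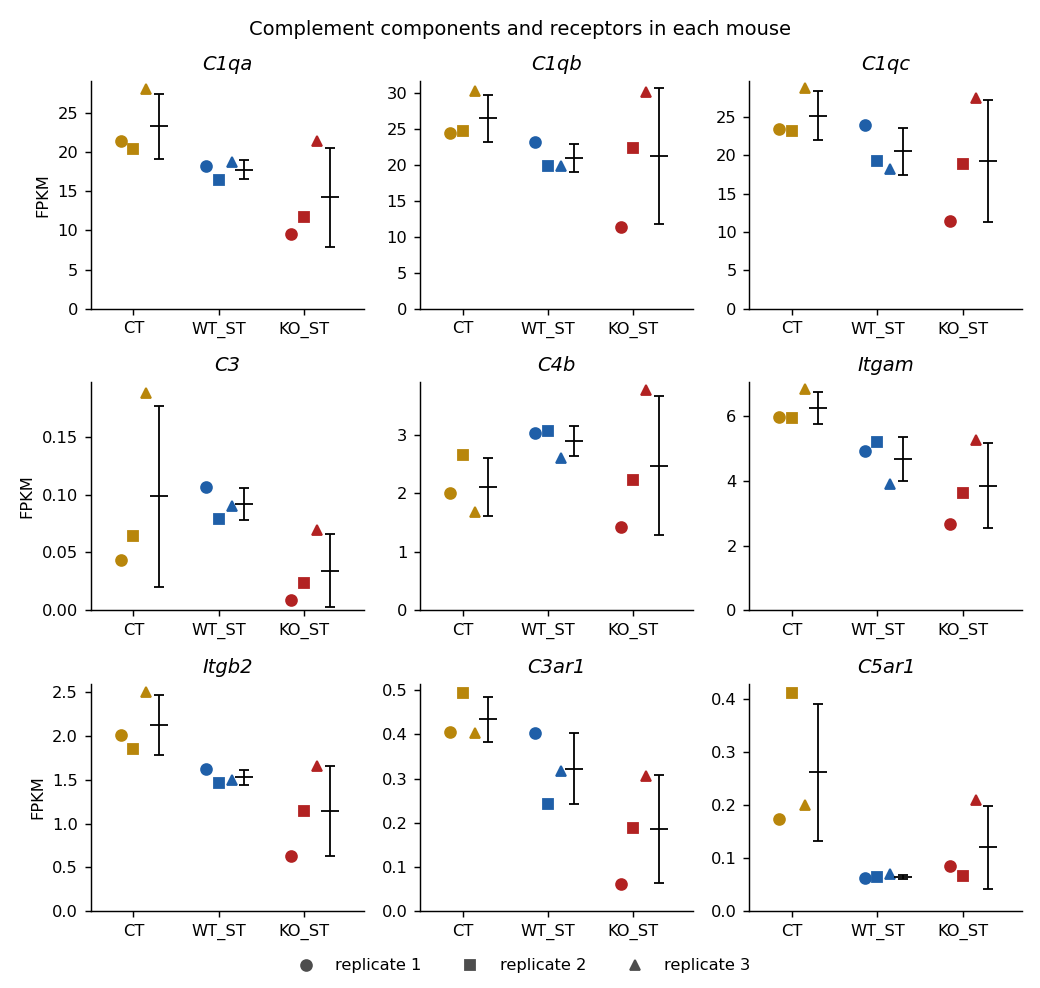
FPKM of the 9 complement genes in each mouse (y axis, separate scale per gene, starting at 0) for the CT, WT_ST and KO_ST groups; symbols are replicates 1 to 3, and the black bar beside each group is the mean with its SD (n = 3). KO_ST replicate 1 (red circle) is the lowest of the 9 mice for 8 of the genes, and CT replicate 3 (yellow triangle) is the highest for 6.

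The first comparison asked what repeated restraint did in wild-type mice. C1qa, C1qb, C1qc and both chains of complement receptor 3 fell in WT_ST, and C4b rose, each by 0.27 to 0.36 on the log2 scale. A gene was called at an unadjusted p under 0.05 with a fold change above 1.2 in limma on quantile-normalized log2(FPKM+1). By this criterion 6 of the 7 tested genes were called, 5 lower and 1 higher, beside 2.47% of all 14370 genes tested, 1.32% lower and 1.16% higher. After Benjamini-Hochberg adjustment over all genes, none of the 7 passed 0.05 in limma, edgeR or DESeq2, where 0.0348%, 0.0418% and 0.501% of all genes did. At an unadjusted p under 0.05 alone in limma the number was 6, beside 7.86% of all tested genes.

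For C1qa, the A chain, the CT mice measured 21.4, 20.4 and 28.0 FPKM and the WT_ST mice 18.2, 16.4 and 18.6. Every stressed wild-type mouse was below every control, and the third control was the highest of all. The log2 fold change was -0.36 (standard error 0.113, adjusted p = 0.634, limma with Benjamini-Hochberg adjustment). C1qb, the B chain, measured 24.5, 24.8 and 30.3 FPKM in CT and 23.2, 19.9 and 19.9 in WT_ST. Again the groups did not overlap, though the first WT_ST mouse was close to the lower controls. Its log2 fold change was -0.33 (standard error 0.0929, adjusted p = 0.630, limma). C1qc, the C chain, measured 23.5, 23.2 and 28.8 FPKM in CT and 24.0, 19.3 and 18.2 in WT_ST. Here the first WT_ST mouse lay above 2 of the controls, so the groups overlapped. The log2 fold change was -0.29 (standard error 0.114, adjusted p = 0.635, limma), and C1qc was not called in edgeR or without the read minimum.

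The receptor chains moved in the same direction as C1q. Itgam was at 5.97, 5.97 and 6.84 FPKM in CT and at 4.92, 5.21 and 3.90 in WT_ST. All WT_ST mice were below all controls, the third by the widest margin. Its log2 fold change was -0.34 (standard error 0.104, adjusted p = 0.634, limma). Itgb2, the partner chain, was at 2.01, 1.85 and 2.50 FPKM in CT and at 1.62, 1.46 and 1.50 in WT_ST, again without overlap. Its log2 fold change was -0.27 (standard error 0.0860, adjusted p = 0.634, limma), and edgeR on read counts, where no pseudocount of 1 enters, gave -0.46. C1qa, C1qb, Itgam and Itgb2 were the 4 tested genes whose groups did not overlap, all lower in WT_ST, beside 14.0% of all tested genes in either direction and 6.46% lower.

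C4b, which carries the cascade from C1q to C3, went the other way. It was at 2.01, 2.65 and 1.68 FPKM in CT and at 3.04, 3.06 and 2.60 in WT_ST. The lowest WT_ST mouse fell just under the highest control. The log2 fold change was 0.36 (standard error 0.130, adjusted p = 0.635, limma). Among the scarce genes, C3ar1 was at 0.406, 0.493 and 0.404 FPKM in CT and at 0.404, 0.243 and 0.318 in WT_ST, and was not called (log2 fold change -0.10, adjusted p = 0.730, limma). C3 was at 0.0435, 0.0637 and 0.188 FPKM in CT and at 0.107, 0.0785 and 0.0900 in WT_ST, from 14 to 49 reads, and no difference was detectable at this depth (log2 fold change 0.01, adjusted p = 0.988, limma without the read minimum). C5ar1 showed a wide gap on few reads. It had 28, 57 and 26 reads in CT (0.173, 0.410 and 0.200 FPKM) and 8 in each WT_ST mouse (0.0624, 0.0635 and 0.0694 FPKM). The groups did not overlap, with a log2 fold change of -2.00 on read counts (adjusted p = 0.687, edgeR without the read minimum) and of -0.23 on log2(FPKM+1) (adjusted p = 0.631, limma). On read counts C5ar1 met the criterion of unadjusted p and fold, as 3.65% of 19197 genes did.

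These calls depended on single mice. Without CT replicate 3 only Itgam stayed called, the log2 fold changes of C1qa, C1qb, C1qc, Itgb2 and C4b being -0.23, -0.23, -0.20, -0.19 and 0.25, each in its former direction. Without WT_ST replicate 2 only C1qb and Itgam were called, without WT_ST replicate 3 only C1qa, C1qb and C4b, and C4b was not called without CT replicate 1 or WT_ST replicate 1 either. With all 9 mice in one fit, which shares the wider spread of KO_ST, none of the 7 was called, and the unmoderated test called only C1qb, Itgam and Itgb2.

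**Figure D2:**
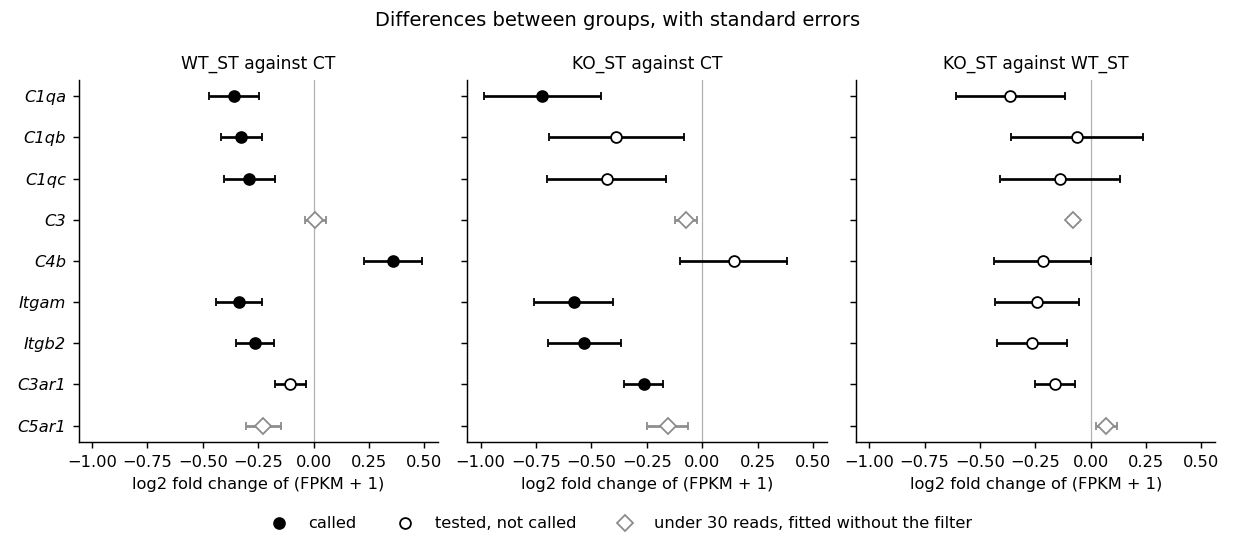
Log2 fold change of (FPKM + 1) with its standard error (x axis) for the 9 genes in the 3 comparisons; filled circles were called (unadjusted p under 0.05 and fold above 1.2, limma), open circles were tested and not called, and grey diamonds are the 2 genes under 30 reads, fitted without that minimum. C4b is the only gene called higher, in WT_ST against CT, and no gene is called in KO_ST against WT_ST.

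The second comparison set stressed Fkbp5-/- mice beside unstressed wild type. Both chains of complement receptor 3, the C3a receptor and C1qa were lower in KO_ST, by 0.26 to 0.72 on the log2 scale. In all, 4 of the 7 tested genes were called and all were lower, beside 3.56% of all tested genes (2.03% lower). None passed an adjusted p of 0.05 in limma, edgeR or DESeq2, where 0.0626%, 0.0557% and 0.786% of all genes did, and 4 of the 7 had an unadjusted p under 0.05 alone in limma, beside 9.46% of all tested genes. This comparison uses the same CT mice as the first, so the 2 sets of values are not independent.

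For all 7 tested genes the KO_ST mice differed from one another more than the mice of either other group. C1qa was at 9.54, 11.7 and 21.4 FPKM in KO_ST, the first 2 below every other mouse and the third level with the first control. The log2 fold change against CT was -0.72 (standard error 0.264, adjusted p = 0.501, limma with Benjamini-Hochberg adjustment). C1qb was at 11.4, 22.4 and 30.1 FPKM and C1qc at 11.5, 18.9 and 27.5 FPKM, spans that reached from far under the controls to just under the highest control. Neither was called (C1qb -0.39, adjusted p = 0.708; C1qc -0.43, adjusted p = 0.641, limma). The SD over 3 mice of the 3 chains' summed FPKM was 23.3 in KO_ST, 10.5 in CT and 5.35 in WT_ST.

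Itgam was at 2.66, 3.63 and 5.28 FPKM in KO_ST, all below the controls (log2 fold change -0.58, standard error 0.179, adjusted p = 0.499, limma). Itgb2 was at 0.628, 1.14 and 1.66 FPKM, likewise all below the controls (-0.53, standard error 0.166, adjusted p = 0.499, limma), and edgeR gave -0.86. C3ar1 was at 0.0624, 0.188 and 0.307 FPKM, again without overlap, from 12, 38 and 70 reads. Its log2 fold change was -0.26 on log2(FPKM+1) (standard error 0.0868, adjusted p = 0.499, limma) and -1.19 on read counts in edgeR. These 3 receptor genes were the members with no overlap, beside 15.8% of all tested genes without overlap in either direction and 7.88% lower.

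The downstream components were not called. C4b was at 1.43, 2.22 and 3.77 FPKM in KO_ST, so that it held both the lowest and the highest value of the 9 mice (log2 fold change 0.14, adjusted p = 0.872, limma). C3 had 2, 6 and 19 reads in KO_ST (0.00870, 0.0236 and 0.0693 FPKM), with a log2 fold change of -0.07 (adjusted p = 0.708, limma without the read minimum). C5ar1 had 10, 8 and 28 reads (0.0850, 0.0666 and 0.209 FPKM), overlapping the controls (-0.16, adjusted p = 0.652, limma without the read minimum). Without KO_ST replicate 1, Itgam (-0.40) and Itgb2 (-0.36) were still called, whereas C1qa (-0.49) and C3ar1 (-0.19) were not. Without KO_ST replicate 3, 6 of the 7 were called lower, C1qb at -0.68 and C1qc at -0.71 included. C1qa was also not called without CT replicate 3 or KO_ST replicate 2, nor C3ar1 without CT replicate 2. With the unmoderated test C3ar1 was called, and C1qa, Itgam and Itgb2 were not.

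The third comparison held stress constant and asked what loss of Fkbp5 changed. None of the 7 tested genes was called in KO_ST against WT_ST, beside 2.0% of all tested genes. At an unadjusted p under 0.05 alone the number was also 0 in limma, beside 5.82% of all tested genes. By the same criterion edgeR and DESeq2 on read counts called 0, beside 2.96% and 2.85% of all genes, and none of the 7 passed an adjusted p of 0.05 in limma, edgeR or DESeq2, where 0.153%, 0.160% and 0.529% of all genes did. All 7 differences were negative in limma, from -0.06 for C1qb to -0.36 for C1qa (standard errors 0.299 and 0.246), and edgeR and DESeq2 placed C1qb at 0.03. Itgb2 was at -0.27 (standard error 0.157, adjusted p = 0.913, limma), Itgam at -0.24 and C4b at -0.22. The standard errors of C1qa, C1qb and C1qc were over 2 times those of WT_ST against CT, so differences of the size seen there could not be resolved here.

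In FPKM, C3 was the 1 gene of the 9 whose groups did not overlap between the stressed genotypes. On quantile-normalized log2(FPKM+1) C5ar1 did not overlap either, at 0.0937 to 0.0988 in WT_ST and 0.1005 to 0.2718 in KO_ST. On that scale 11.0% of all tested genes were without overlap in either direction. C3 and C5ar1 are themselves below the read minimum of those genes. C3 had 28, 20 and 21 reads in WT_ST and 2, 6 and 19 in KO_ST. Per length and depth this was 0.0785 to 0.107 FPKM against 0.00870 to 0.0693. The log2 fold change was -1.36 on read counts (adjusted p = 0.932, edgeR without the read minimum) and -0.08 on log2(FPKM+1), with an unadjusted p under 0.05 but a fold under 1.2 (adjusted p = 0.707, limma). The calls changed when single KO_ST mice were left out. Without replicate 3, C1qa (-0.67), Itgam (-0.44), Itgb2 (-0.43) and C4b (-0.47) were called lower, and without replicate 1 C1qb alone was called, higher at 0.31.

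**Figure D3:**
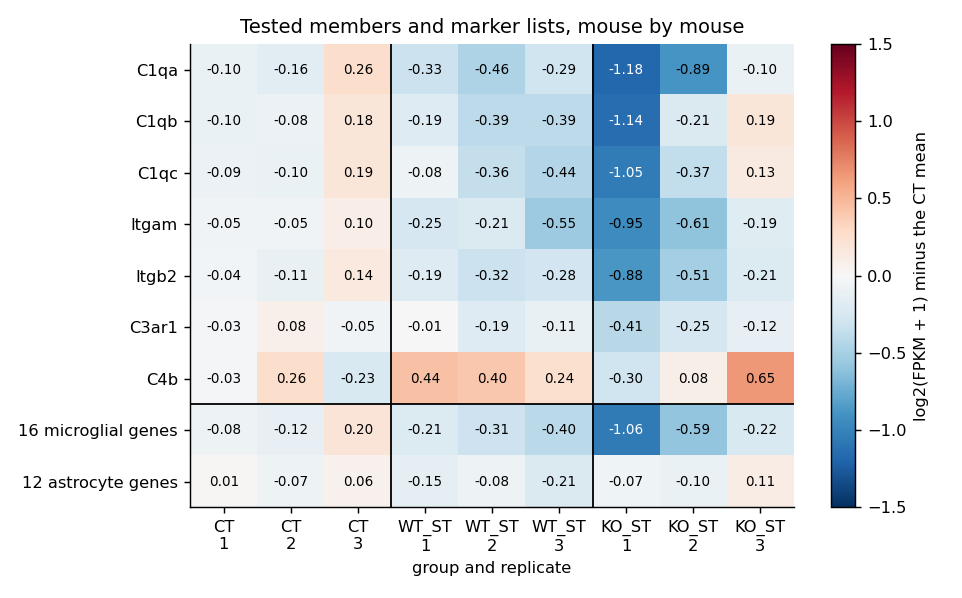
Log2(FPKM + 1) after quantile normalization minus the mean of the 3 CT mice, for the 7 tested genes and for the means of 16 microglial and 12 astrocyte genes (rows) in each mouse (columns, replicate number under the group); blue is lower and red higher than CT. In KO_ST the values of C1qb run from -1.14 in replicate 1 to 0.19 in replicate 3, and the microglial mean runs from -1.06 to -0.22.

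The lowest and the highest mouse were the same for most of the genes, while the order between them differed from gene to gene. KO_ST replicate 1 was the lowest of the 9 for every gene but C5ar1, and CT replicate 3 was the highest for C1qa, C1qb, C1qc, C3, Itgam and Itgb2. From lowest to highest mouse the level varied 2.94 times for C1qa, 2.66 for C1qb, 2.51 for C1qc, 2.57 for Itgam, 3.99 for Itgb2 and 7.91 for C3ar1. The 3 chains of C1q kept close to each other, with a ratio of C1qa to C1qb between 0.709 and 0.937 in 8 mice. KO_ST replicate 2 was the exception at 0.525, where C1qa was low (11.7 FPKM) beside C1qb at 22.4. The transcripts of the 3 chains share no stretch of 100 identical bases, so reads of that length were not exchangeable between them.

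Microglial genes moved with these results. Of the 16 microglial genes, none of which is a complement gene of the list, 8 were called lower and 0 higher in WT_ST against CT, 13 lower in KO_ST against CT and 1 lower in KO_ST against WT_ST, with medians of -0.33, -0.66 and -0.37 on the log2 scale. Of all tested genes, 2.47%, 3.56% and 2.0% were called in these comparisons. Without CT replicate 3 the microglial counts in the comparisons with CT were 6 and 6, beside 3.77% and 4.41% of all tested genes. With all 9 mice in one fit the first microglial count was 2, beside 2.38%. The second was 9 without KO_ST replicate 1 and 8 without KO_ST replicate 2, beside 3.05% and 3.27%. The third was 13 without KO_ST replicate 3, beside 3.32%. It was 0 without KO_ST replicate 1, KO_ST replicate 2, WT_ST replicate 1 or WT_ST replicate 2. The medians of the 7 tested complement genes were -0.29, -0.43 and -0.22, beside 0.00 over all tested genes in each comparison.

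Across the 9 mice, the level of Itgb2 followed the mean of the microglial genes most closely (Pearson r = 0.994, p = 1.38e-05, adjusted p = 0.000198; Spearman rho = 0.983, p = 4.96e-05, adjusted p = 0.000893; exact two-sided permutation tests, adjusted over 18 relations). It was 0.971 without CT replicate 3 and KO_ST replicate 1, the 2 mice farthest from the median. For Itgam r was 0.970 (exact permutation p = 2.21e-05, adjusted p = 0.000198, rho = 0.933 with adjusted p = 0.00675) and 0.943 without those mice. For C1qa r was 0.961 (exact permutation p = 0.000163, adjusted p = 0.000976, rho = 0.883 with adjusted p = 0.0185) and 0.882 without them. C1qc (r = 0.930, exact permutation adjusted p = 0.00326, rho = 0.833) fell to 0.697 without them. C1qb (r = 0.882, exact permutation adjusted p = 0.0132, rho = 0.767 with adjusted p = 0.0642) fell to 0.441, so its relation rested on those 2 mice. C3ar1 gave r = 0.860 (exact permutation adjusted p = 0.0132, rho = 0.800 with adjusted p = 0.0498) and 0.827 without them. All these permutations ran over the 9 mice regardless of group, so differences between the groups enter the p-values.

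With the group means removed, r was 0.987 for Itgb2, 0.936 for Itgam, 0.918 for C1qa, 0.971 for C1qb, 0.987 for C1qc and 0.667 for C3ar1, pooled over the groups and without a test. These values include CT replicate 3 and KO_ST replicate 1. For these genes and the microglial mean, the spread within a group was widest in KO_ST. C3 (r = 0.720, exact permutation adjusted p = 0.0872, 0.176 without the 2 mice) and C5ar1 (r = 0.442, adjusted p = 0.355) did not pass. C4b did not either (r = 0.234, exact permutation p = 0.559, adjusted p = 0.671), and with the group means removed its r was 0.671. None of the 9 genes was related to the mean of 12 astrocyte genes at an adjusted p under 0.05, the highest Pearson r being 0.506, for C1qc (exact permutation p = 0.166, adjusted p = 0.326). With the group means removed, the r with the astrocyte mean rose for every gene but C5ar1, to 0.797 for Itgam, 0.723 for C1qa, 0.636 for Itgb2 and 0.624 for C1qc, and for the other 5 it was 0.0404 to 0.528, without a test. The libraries, depth and dissections behind both sides of these relations are the same.

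**Figure D4:**
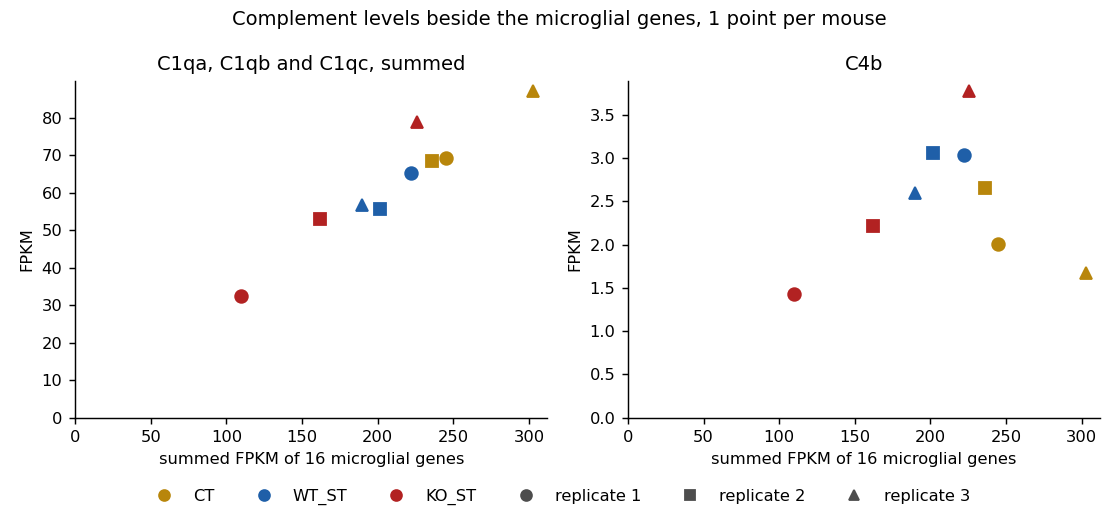
Summed FPKM of C1qa, C1qb and C1qc (left) and FPKM of C4b (right) against the summed FPKM of 16 microglial genes, 1 point per mouse, coloured by group and with replicates as symbols; all axes start at 0. Summed C1q rises with the microglial sum from KO_ST replicate 1 (32.4 beside 109.5) to CT replicate 3 (87.1 beside 302.6), whereas C4b is lowest in KO_ST replicate 1 (1.43) and second lowest in CT replicate 3 (1.68).

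Expressed as a percentage of the summed microglial FPKM, C1q was nearly level between the wild-type groups. The 3 chains together came to 28.3, 29.0 and 28.8% in CT and to 29.5, 27.6 and 29.9% in WT_ST, so the groups overlapped. In KO_ST they came to 29.6, 32.8 and 35.0%, of which 2 were above every other mouse. The chains differed in this: C1qa came to 8.73, 8.66 and 9.26% in CT and 8.71, 7.26 and 9.47% in KO_ST, with the second KO_ST mouse the lowest of the 9, while the CT and KO_ST means were 10.2 and 12.5% for C1qb and 9.65 and 11.5% for C1qc. Itgam came to 2.41% ± 0.136 (SD, n = 3) in CT, 2.28% ± 0.273 in WT_ST and 2.34% ± 0.0937 in KO_ST, differences within the spread. Its partner chain did not stay level, Itgb2 being at 0.820, 0.785 and 0.828% in CT and at 0.574, 0.708 and 0.734% in KO_ST, every KO_ST mouse below every control. C3ar1 came to 0.170% ± 0.0380 (SD, n = 3) in CT and 0.103% ± 0.0410 in KO_ST, and these groups overlapped. C4b came to 0.819, 1.12 and 0.554% in CT, 1.37, 1.52 and 1.37% in WT_ST and 1.303, 1.372 and 1.672% in KO_ST. Every stressed mouse of either genotype was above every control, but the microglial sum that divides C4b was itself lower in every stressed mouse than in every control, and the FPKM of C4b overlapped between the groups. These ratios were formed after the values were seen and were not tested. What part microglial RNA content had in the differences of complement genes between groups was not tested.

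C4b has a near copy, C4a, at chr17:34809092-34823460. Of 5280 windows of 100 bases in the C4b transcript, 871 (16.5%) are identical in C4a, so reads there could be assigned to either gene. C4b took 72.1, 74.2 and 70.6% of the reads on the pair in CT, 84.4, 79.2 and 82.4% in WT_ST, and 73.4, 75.1 and 83.5% in KO_ST. The share was thus higher in all WT_ST mice than in all controls. The summed FPKM of both genes was 2.79, 3.58 and 2.38 in CT, 3.60, 3.87 and 3.16 in WT_ST, and 1.95, 2.96 and 4.52 in KO_ST, and the groups overlapped. C4a itself was not called in any comparison (log2 fold changes -0.11, -0.08 and 0.03 in WT_ST against CT, KO_ST against CT and KO_ST against WT_ST).

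The rest of the complement system was read from lists by role. Of 30 complement components, 14 were tested, and in WT_ST against CT the only calls in limma were the members C1qa, C1qb, C1qc (lower) and C4b (higher), with a list median of 0.04 (-0.01 in edgeR) beside 0.00 over all tested genes. In KO_ST against CT the only component called was C1qa (median 0.09), and in KO_ST against WT_ST none was called in limma or edgeR (median 0.00). The lectin-pathway genes Mbl1 and Mbl2, the terminal components C6 and C9, and Cfd of the alternative pathway had no read in any of the 9 mice. Of 10 complement receptors 5 were tested, and the calls in limma were again members, Itgam and Itgb2 in WT_ST against CT and these with C3ar1 in KO_ST against CT. In edgeR, which called 3.72% and 4.63% of all tested genes in these comparisons, Cd93, once described as a C1q receptor, was called lower as well, with all mice in. Cd93 was at 0.874, 1.35 and 1.098 FPKM in CT, 0.829, 0.906 and 0.597 in WT_ST, and 0.614, 0.738 and 0.819 in KO_ST. The KO_ST mice were all below the controls, whereas WT_ST overlapped them. Its log2 fold changes were -0.50 and -0.59 on read counts (adjusted p = 0.662 and 0.518, edgeR) and -0.21 and -0.25 on log2(FPKM+1), under a fold of 1.2 (limma).

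Complement regulators restrain the cascade or carry its control domains. Of 21, 17 were tested, and limma called 1 in WT_ST against CT and 1 in KO_ST against CT, beside 2.47% and 3.56% of all tested genes. Without CT replicate 3 the counts were 2 and 1, and without KO_ST replicate 1 the second was 1. Vtn, encoding vitronectin, which binds the terminal complex, was lower in WT_ST (25.4, 22.4 and 20.2 FPKM) than in CT (29.6, 25.5 and 29.2 FPKM). No WT_ST mouse reached a control, with a log2 fold change of -0.30 (adjusted p = 0.634, limma). Clu, encoding clusterin, another inhibitor of the terminal complex, was at 338.4, 387.8 and 363.5 FPKM in CT and at 285.7, 313.4 and 304.2 in KO_ST. Again no KO_ST mouse reached a control, with a log2 fold change of -0.29 and an adjusted p of 0.437 in limma. In edgeR the log2 fold change was -0.25, under a fold of 1.2, so Clu was not called there. WT_ST mice were also all below the controls for Clu, at 307.3, 312.6 and 294.8 FPKM, with a log2 fold change of -0.26 that was just under a fold of 1.2 (adjusted p = 0.542, limma), and KO_ST differed from WT_ST by -0.04 (adjusted p = 0.953, limma). No regulator was called in KO_ST against WT_ST by limma, and edgeR called 1. This was Srpx2, whose protein binds and restrains C1q, at 0.448, 0.303 and 0.425 FPKM in WT_ST and 0.513, 0.576 and 0.813 in KO_ST. All KO_ST mice were above all WT_ST mice, but in FPKM the CT mice, at 0.537, 0.518 and 0.421, overlapped both. After quantile normalization every KO_ST mouse was above every control for Srpx2, which was not called in KO_ST against CT. The log2 fold change of KO_ST against WT_ST was 0.70 on read counts (adjusted p = 0.881, edgeR) and 0.23 on log2(FPKM+1) (adjusted p = 0.814, limma). The medians of the list were 0.01, -0.02 and 0.00.

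Some partners in phagocytosis fell with the complement receptors in both comparisons with CT. All 17 genes of the list were tested, 4 of which (Cx3cr1, P2ry12, Trem2 and Tyrobp) also stand among the 16 microglial genes. In WT_ST against CT 3 were called lower and 0 higher: Cx3cr1, the fractalkine receptor (-0.48, adjusted p = 0.412), Fcer1g, the signalling chain of Fc receptors (-0.36, adjusted p = 0.597), and P2ry12, the ADP receptor of resting microglia (-0.26, adjusted p = 0.634, all limma). In KO_ST against CT 5 were called lower and 0 higher, with Cx3cr1 at -0.97, P2ry12 at -0.68, the Fc receptor Fcgr3 at -0.65, Fcer1g at -0.63 and Tyrobp, the adaptor of TREM2, at -0.49 (adjusted p 0.470 to 0.504, limma). In KO_ST against WT_ST P2ry12 alone was called in limma (-0.42, adjusted p = 0.852) and none in edgeR, and Cx3cr1 (-0.49) and Fcgr2b (-0.43) were larger but not called. Of all tested genes, limma called 2.47%, 3.56% and 2.0% in WT_ST against CT, KO_ST against CT and KO_ST against WT_ST. The medians of the phagocytosis list in these comparisons were -0.06, -0.23 and -0.15. Without CT replicate 3 the counts in the comparisons with CT were 3 and 3, beside 3.77% and 4.41% of all tested genes. Without KO_ST replicate 1 the count in KO_ST against CT was 3, beside 3.05%. In KO_ST against WT_ST, 9 of the 17 were called lower without KO_ST replicate 3, beside 3.32% of all tested genes. In the same comparison none was called lower without KO_ST replicate 1.

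**Figure D5:**
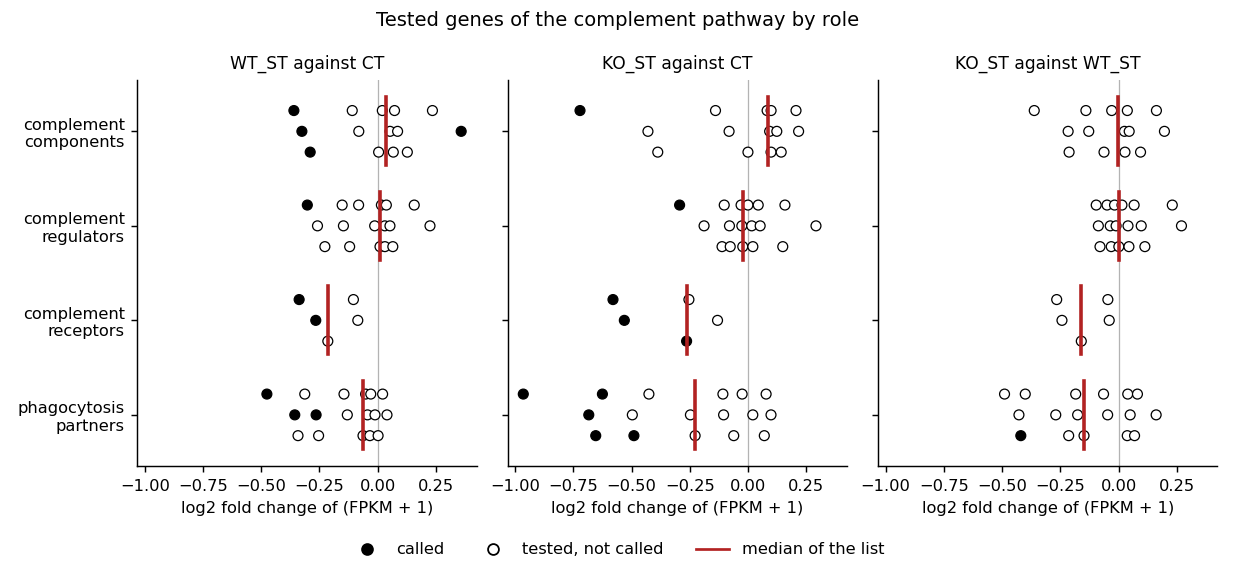
Log2 fold change of (FPKM + 1) (x axis) of the tested genes in 4 lists (14 complement components, 17 regulators, 5 receptors and 17 phagocytosis partners) in the 3 comparisons; filled points were called, open points were not, and the red line is the median of the list. The receptors lie below 0 in every comparison, and the medians of the components are 0.04, 0.09 and 0.00.

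The genes closest in profile to the members were found by Pearson r across the 9 mice over 12545 genes with a mean of at least 1 FPKM, as a description without a test. The mean of the 3 C1q chains was close to Lag3 (r = 0.980), Acss1 (0.970), Csf1r (0.970) and Ctss (0.954), of which Csf1r and Ctss were on the microglial list. Itgb2 was close to Cx3cr1 (0.990) and Vsir (0.987), and Itgam to Vsir (0.979), Hcls1 (0.974) and P2ry13 (0.972). C4b kept other company, with Proser1 (0.953), Spsb4 (0.950) and Cacnb4 (0.945), none of them on the microglial list. C3ar1 was nearest to Snx9 (0.961), Tmem173 (0.961) and Eif5a (0.957). For the genes with few reads, the nearest were Ufl1 (0.953), Ostf1 (0.944) and Vamp3 (0.938) for C3, and Apoe (0.975), Snhg10 (0.948) and Fam107a (0.944) for C5ar1.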

How the data were processed

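Poly(A) RNA of the prefrontal cortex was sequenced by the authors with a stranded mRNA kit (Illumina TruSeq), 1 library per mouse. Reads were aligned to GRCm38 (mm10), and the submitters' processing notes name HISAT2 2.1.0, Bowtie2 2.3.4.1 and StringTie 1.3.4d. For each mouse the authors deposited read counts per gene, without normalization, and FPKM values.

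Following the authors' scheme, log2(FPKM+1) was quantile-normalized over the 9 mice and 24532 genes. Genes averaging at least 30 reads (14370) were tested with limma 3.58.1 (moderated, trend) in R 4.3.3 between the mice of 2 groups, with Benjamini-Hochberg adjustment over all of them. Calls needed a fold change over 1.2 and a p under 0.05 before adjustment. A fold change on this scale understates that of low genes. edgeR 4.0.16 (quasi-likelihood) and DESeq2 1.42.0 on counts, a pseudocount of 0.1, no quantile normalization, other filters, an unmoderated test, all 9 mice in one fit, a replicate block and leaving out each mouse were alternatives. C3 and C5ar1 were fitted without the read minimum, over 19197 genes. The libraries held 43778471 to 61150128 reads assigned to genes.

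The members and gene lists were chosen with earlier results of these data known. Genes named are the members, C4a, Fkbp5, the called genes and the 3 largest changes among tested genes of the 4 pathway lists, and the genes nearest in profile, except for an item that is not reported here. S100a8, S100a9, Srpx2, Cd93 and the list genes without reads were named after their values were seen. Nothing says that more than 1 library was made per mouse, and p-values measure the spread between these mice. Replicates differed by more than sampling noise (chi-square per degree of freedom 18.7 to 47.6). The methods were tested on simulated data. Figures were drawn with matplotlib 3.10.9.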

Additional observations from a re-analysis of the deposited data

How the results depend on the processing

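Of 390 values of single complement genes under an alternative, 330 kept their direction and their side of the criterion, 35 lost the call, 12 gained it and 13 changed sign. The number of members called in WT_ST against CT was 6, but 3 with the unmoderated test, 0 with all 9 mice in one fit, and 1 to 6 with one mouse left out: 1 without CT replicate 3, 2 without WT_ST replicate 2 and 3 without WT_ST replicate 3. In KO_ST against CT it was 4, but 1 with the unmoderated test and 2 (without KO_ST replicate 1) to 6 (without KO_ST replicate 3) with one mouse left out. In KO_ST against WT_ST it was 0, and 0 to 4 with one mouse left out (1 without KO_ST replicate 1, 4 without KO_ST replicate 3). The replicate numbers in the labels do not pair the mice (mean correlation of deviations -0.0101 for the same number and 0.00493 for different numbers), and with the replicate block 5, 4 and 0 members and 399, 562 and 279 genes were called, C1qc in WT_ST against CT being lost (p = 0.0623, limma). The cause was not tested for any of these changes, apart from the fewer mice or the shared spread that an alternative has by construction.

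Over all genes, 355, 512 and 287 were called in WT_ST against CT, KO_ST against CT and KO_ST against WT_ST. The first was 544 with a pseudocount of 0.1, 535 in edgeR, 552 in DESeq2, 164 unmoderated and 277 to 542 with one mouse left out (542 without CT replicate 3). The second was 248 unmoderated and 410 to 734 with one mouse left out. The third was 445 with a pseudocount of 0.1, 138 unmoderated and 245 to 477 with one mouse left out (477 without KO_ST replicate 3). The share of called genes that were higher was 46.8, 43.2 and 47.4%, against 34.1, 28.5 and 44.7% without quantile normalization and 33.1, 37.6 and 52.8% in edgeR, and the median of all tested genes stayed near 0.

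The differences that changed sign were not called with all mice of both groups in limma, although C1qb was called higher without KO_ST replicate 1 and C4b lower without KO_ST replicate 3, both in KO_ST against WT_ST. C3 in WT_ST against CT (0.01) was -0.0065 without quantile normalization, -0.083 in edgeR, -0.086 in DESeq2 and -0.028 to 0.059 with one mouse left out. C1qb in KO_ST against WT_ST (-0.06) was 0.033 in edgeR, 0.035 in DESeq2 and -0.35 to 0.31 with one mouse left out. With one mouse left out, C1qc in KO_ST against WT_ST ranged from -0.42 to 0.17, C4b from -0.47 to 0.0062, and C4b in KO_ST against CT from -0.11 to 0.36. Depth limits C3 and C5ar1 (2 to 57 reads per mouse) most.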

Other observations

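Other cell types of the cortex were read from marker lists, none of which holds a complement gene of the report. Astrocyte genes, which mark cells able to make C3 and C4, were summed at 828.7 to 895.9 FPKM in CT, 739.8 to 780.6 in WT_ST and 763.4 to 877.2 in KO_ST, and 2 of 12 were called lower in WT_ST against CT and 0 in the other comparisons. Of 6 tested genes of perivascular and meningeal macrophages, which also express C1q, 0 were called in any comparison by limma or edgeR, with summed FPKM between 2.90 and 8.14. Of 5 tested monocyte and neutrophil genes 0 were called in limma, and 4 were called lower in edgeR in WT_ST against CT and 0 in KO_ST against CT, both of which include CT replicate 3. Endothelial genes were called lower for 1, 2 and 1 of 8 genes in WT_ST against CT, KO_ST against CT and KO_ST against WT_ST. Of 10 neuronal, 8 oligodendrocyte, 4 tested erythroid and 1 tested choroid plexus genes 0 were called by either tool. Of 8 meningeal fibroblast genes 1 was called lower in KO_ST against CT. Of 6 housekeeping genes 1 was higher in WT_ST against CT and 1 lower in KO_ST against WT_ST. What part these cell types had in the differences of complement genes was not tested.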
